A study of Callosobruchus maculatus with 24 samples.

Results

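The effect of mating on gene expression in male heads and thoraces of Callosobruchus maculatus, a seed beetle, was measured as the difference between mated males (3 libraries) and virgin males (3 libraries). These 6 libraries were chosen by their labels out of 24, in which virgin and mated beetles of both sexes were sequenced as abdomens and as combined heads and thoraces (8 groups of 3 libraries). All 8 groups are whole body parts of the strain South India, and the labels name no transgene or mutation. The labels name the mating states as mated and virgin and refer to a manuscript for the treatment, so neither the mating regime, nor the time from mating to freezing, nor the age or number of pooled beetles is known here. Whether the 3 libraries of a group were separate cultures is not stated either, and p-values therefore cover the spread between these samples alone, which may be technical.

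The head of a beetle holds the brain, the eyes and the antennae, with which males detect female pheromone, and the thorax holds the flight and leg muscles together with fat body. Testes and accessory glands, which make sperm and seminal fluid, lie in the abdomen. Males of this species transfer a large ejaculate to the female at mating, with seminal fluid proteins that are known from many insects to act on female physiology. Because whole body parts were sequenced, fewer cells of a type and less RNA per cell cannot be told apart in any value below.

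The deposited gene table holds 29812 genes with IDs to which the files assign no names. Genes are therefore described here by level, direction and behaviour in the other groups, and only a few IDs are printed. The mated libraries held 7948002 ± 186758 counts and the virgin libraries 7922142 ± 120511 counts (SD, n = 3 each), against 7805440 to 10171662 over all 24 libraries. Levels are given as CPM, counts over the TMM-scaled library total, and 1 CPM stood for 7.8 to 8.2 counts before scaling. The most similar libraries of a group still differed beyond sampling noise (chi-square of 6.25 per degree of freedom). Over 7288 genes at 10 CPM or more, the median coefficient of variation was 7.58% among mated and 9.12% among virgin libraries.

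Virgin male replicate 1 stood apart from the other 5 libraries in genes of the male abdomen. A list of 976 male-limited abdominal genes (a mean of 5 CPM or more over male abdomens, a mean over female abdomens no higher than 1/16 of it, and no use of head and thorax libraries) summed to 8279, 7179 and 7417 CPM in mated replicates 1 to 3, against 15491, 6643 and 8281 CPM in virgin replicates 1 to 3. The first virgin library was thus the highest of the 6, while the other 2 virgin libraries lay on both sides of the mated ones. It had a count for 919 of the 976 genes, where the other 5 libraries had one for 431 to 732. Of the 610 members with at least 20 counts over the 6 libraries, 506 (83%) were highest in virgin replicate 1, whereas 25.9% of all genes tested were highest there.

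The size of this signal was best seen in 771 members that stayed at or below 1% of their male abdomen level in female heads and thoraces. In mated replicates 1 to 3 the median member reached 0.204%, 0.22% and 0% of its level in mated male abdomens. In virgin replicate 1 it reached 6.47% of its level in virgin male abdomens (interquartile range 4.9% to 8.69%), and in virgin replicates 2 and 3 it reached 0% and 0.438%. A level of at least 5% of that in abdomens was reached by 27, 4 and 2 of the 771 genes in mated replicates 1 to 3, and by 573, 4 and 5 in virgin replicates 1 to 3. The summed level of the 771 genes was 1770, 723.5 and 352.8 CPM in mated replicates 1 to 3, against 8077, 218.7 and 701.1 CPM in virgin replicates 1 to 3. Mated replicate 1 was thus the second highest library by this sum. In virgin replicate 1 the sum was 2.95% of that in virgin male abdomens, below the 6.47% of the median member. The signal was therefore uneven across members, and 1 of them, for example, stood at 0.0594% there.

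**Figure D1:**
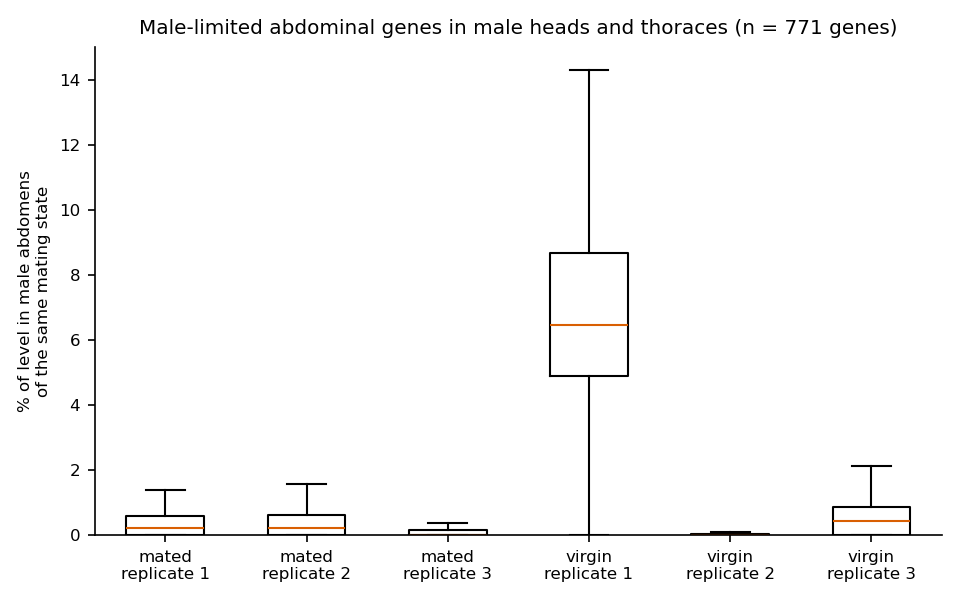
Level of 771 male-limited abdominal genes in each male head and thorax library, as a percentage of the mean level of the same gene in male abdomens of the same mating state. Boxes span the quartiles, the line is the median, whiskers reach the last gene within 1.5 interquartile ranges, and genes beyond are not drawn; the median is at most 0.22% in the mated libraries, 6.47% in virgin replicate 1 and at most 0.438% in the other 2 virgin libraries.

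Genes shared by the abdomens of both sexes did not follow this pattern. The 16 genes with at least 5 CPM in abdomens of both sexes, within 2-fold of each other, and at most 1/16 of that in mated female heads and thoraces summed to 60.1, 31.2 and 40.3 CPM in mated replicates 1 to 3. Virgin replicates 1 to 3 had 38.4, 20.9 and 49.4 CPM, so that virgin replicate 1 lay inside the range of the other libraries. The ratio of mated to virgin sums was 1.21 (exact two-sided permutation p = 0.5). For the male-limited list the ratio was 0.752 (exact two-sided permutation p = 0.6) and 1.02 without virgin replicate 1, and 3 against 3 libraries cannot give a p under 0.1. The tissue or step from which the male-limited reads in virgin replicate 1 came was not tested.

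Lists made from the other groups showed the labelled body part and sex. The 47 head and thorax genes (at least 5 CPM in mated female heads and thoraces, at most 1/16 of that in the abdomens of both sexes) had sums of 15283 to 16183 CPM in heads and thoraces of mated and 16705 to 17437 CPM in those of virgin males. In male abdomens the sum was 450.3 CPM in mated replicate 1 and 33.4 to 68.4 CPM in the other libraries. The source of the higher sum in that library was not tested. The low level in abdomens was fixed by the rule for the list, whereas male heads and thoraces took no part in it. The summed level of 310 female-limited abdominal genes was 1236 ± 140 CPM in heads and thoraces of mated and 1133 ± 14.6 CPM in those of virgin males, against 156558 ± 8069 CPM in mated and 91192 ± 2949 CPM in virgin female heads and thoraces (SD, n = 3 each).

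Mated and virgin male heads and thoraces differed in few genes. Of 13051 genes tested with edgeR's quasi-likelihood test, 9 rose in mated males (0.069%) and 1 fell (0.00766%), 10 in all (0.0766%) at an adjusted p of 0.05 or less. This count and its direction depended on the fit: there were 0 calls in a fit of the 6 compared libraries alone (where 1082 genes had an unadjusted p under 0.05 by edgeR), 1 higher and 3 lower without virgin replicate 1, and 114 higher and 75 lower with DESeq2. Leaving out 1 of the 12 libraries of the fit gave 0 to 14 calls, with 0 without mated male replicate 1, virgin male replicate 2, virgin male replicate 3 or mated female replicate 3. The 9 risen genes were 1.31 to 2.54 times higher in mated males, and the fallen gene had a log2 fold change of -1.92. At an adjusted p of 0.1 or less there were 24 higher (0.184%) and 3 lower genes (0.023%). An unadjusted p under 0.05 was reached by 1257 genes (9.63%), 545 higher (4.18%) and 712 lower (5.46%).

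**Figure D2:**
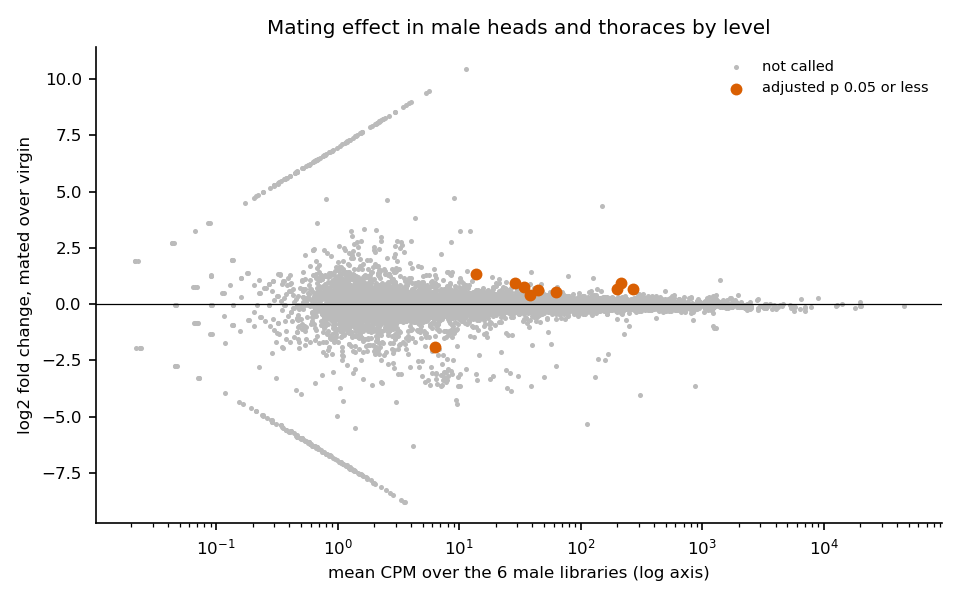
Log2 fold change of mated over virgin male heads and thoraces against the mean CPM over the 6 libraries (log axis), 1 point for each of 13051 genes tested. The 9 risen genes (orange, above 0) lie at 10 CPM or more and the fallen gene between 1 and 10 CPM, within a log2 fold change of -1.92 to 1.35, while the 2 rows of points that fan out at low levels are mostly genes with no count in the mated (118 genes) or the virgin libraries (109 genes).

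The precision behind these counts depended on the level of the gene. Over all genes the median absolute log2 fold change was 0.15 and the median standard error 0.18, and the 95% interval of 9486 genes (72.7%) lay within 2-fold in both directions. Intervals that tight were found for 97.9% of 1516 genes at 100 CPM or more and for 94.7% of 5772 genes at 10 to 100 CPM. They were found for 48.9% of 5095 genes at 1 to 10 CPM and for 6.59% of 668 genes below 1 CPM. Below 10 CPM most intervals thus reached past 2-fold, so that a difference of that size was not excluded there. The median standard error was 1.18 below 1 CPM, 0.33 at 1 to 10 CPM and 0.12 at 10 to 100 CPM. These intervals do not show how large a difference would pass the adjusted threshold, which is stricter. All 9 risen genes were at 10 CPM or more.

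TR57290|c1_g4 had the largest increase among the risen genes. It stood at 15.8, 20.5 and 22.8 CPM in mated males, against 8.41, 9.35 and 5.66 CPM in virgin males, so that every mated library lay above every virgin one. The log2 fold change was 1.35 (SE 0.19, 95% interval 0.93 to 1.76, adjusted p = 0.0395 by edgeR). TR29718|c2_g8 was the next. It had 42.2, 37.9 and 33.2 CPM in mated males and 22.2, 20.2 and 17.3 CPM in virgin males, again without overlap. Its log2 fold change was 0.94 (SE 0.13, 95% interval 0.66 to 1.23, adjusted p = 0.0395 by edgeR).

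The other 7 risen genes are numbered 3 to 9 by their log2 fold change, and none of the 9 risen genes had overlapping groups. Rising gene 3 averaged 280 ± 22.5 CPM in mated and 148.7 ± 27.2 CPM in virgin males (SD, n = 3 each; log2 fold change 0.93). Rising gene 4 had the lowest adjusted p of the comparison. It averaged 42.8 ± 2.4 CPM in mated and 25.7 ± 1.63 CPM in virgin males (SD, n = 3 each; log2 fold change 0.75, adjusted p = 0.0211 by edgeR). Both genes had every mated library above every virgin one. Gene 5 averaged 331.8 ± 8.47 CPM in mated and 208.6 ± 15.4 CPM in virgin males, and gene 6 averaged 239 ± 12.9 CPM in mated and 154.1 ± 9.05 CPM in virgin males (SD, n = 3 each; log2 fold changes 0.68 and 0.65).

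The 3 smallest increases were those of genes 7 to 9. Gene 7 averaged 53.3 ± 1.66 CPM in mated and 35.4 ± 3.35 CPM in virgin males, gene 8 averaged 74.1 ± 5.04 CPM in mated and 51.9 ± 1.66 CPM in virgin males, and gene 9 averaged 43.5 ± 0.771 CPM in mated and 33.5 ± 1.98 CPM in virgin males (SD, n = 3 each). Their log2 fold changes were 0.60, 0.53 and 0.39.

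TR54179|c0_g2 was the only gene called lower in mated males in the main fit. It had 2.95, 2.34 and 2.54 CPM in mated males, against 9.86, 8.70 and 11.5 CPM in virgin males. The groups lay far apart compared with their spread, and the lowest library still held 17 counts. The log2 fold change was -1.92 (SE 0.25, 95% interval -2.47 to -1.36, adjusted p = 0.0395 by edgeR). TR75389|c0_g1 was the next lower gene by p with no overlap and counts in every library, but it missed the threshold. It had 15.4, 14.6 and 16 CPM in mated males and 31.5, 26.5 and 23.8 CPM in virgin males (log2 fold change -0.81, SE 0.14, adjusted p = 0.0905 by edgeR).

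**Figure D3:**
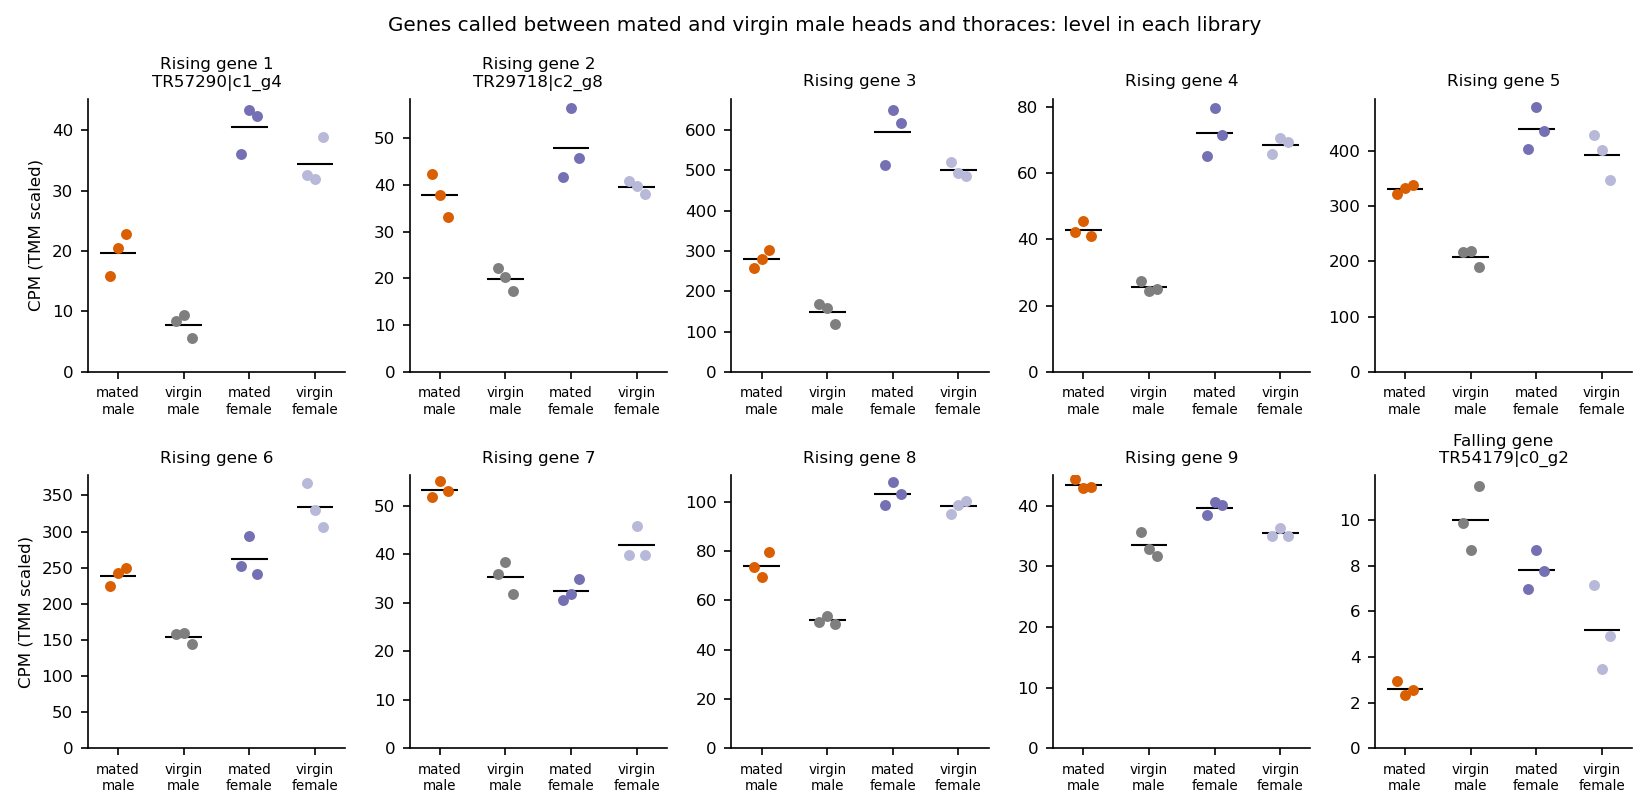
Level (CPM, linear axis from 0) of the 9 risen genes and the fallen gene in each head and thorax library, with mated and virgin males and, beside them, mated and virgin females (points: 3 libraries a group, lines: group means). Mated and virgin males do not overlap in any of the 10 panels, and for 7 of the 9 risen genes the mean of mated males is below that of mated females.

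The size of these differences varied less between settings than the calls did. Over 24 alternatives the log2 fold change ran from 1.16 to 1.51 for TR57290|c1_g4, from 0.86 to 1.02 for TR29718|c2_g8 and from -2.01 to -1.80 for TR54179|c0_g2, and their calls ended in 14, 13 and 11 of the 24. Without virgin male replicate 1, the log2 fold changes were 1.38 for TR57290|c1_g4 (adjusted p = 0.128), 1.01 for TR29718|c2_g8 (adjusted p = 0.0899), -1.94 for TR54179|c0_g2 (adjusted p = 0.0899) and 0.79 for rising gene 4 (adjusted p = 0.0259). The calls of these first 3 genes, and of 5 further risen genes, ended when any 1 of the 6 male libraries was left out. Rising gene 4 was no longer called without mated replicate 1 (adjusted p = 0.0524), virgin replicate 2 (adjusted p = 0.0514) or virgin replicate 3 (adjusted p = 0.101), and gene 8 was no longer called without any 1 of them except mated replicate 2 (adjusted p = 0.0409 without it). None of the 10 called genes belongs to the male-limited or the shared abdominal list. A share of abdominal RNA was set for each library from the male-limited genes at or below 1% in female heads and thoraces. It was the larger of the median member's percentage and the percentage of the sum. In virgin replicate 1 it was the median, 6.47%, where the sum gave 2.95%. Such a share would amount to 0.0338% to 24% of the called genes' levels over the 6 libraries. The highest value was that of rising gene 8 in virgin replicate 1. For the fallen gene TR54179|c0_g2 the share would amount to 2.42% in virgin replicate 1. This assumes the same share for all abdominal genes. In virgin replicate 1, however, the sum of the shared abdominal genes lay inside the range of the other libraries. The part of such a share in the results was not tested.

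The most highly counted genes of male heads and thoraces showed no called difference between mated and virgin males. TR36313|c1_g2, which took the most counts (per gene, not per length), stood at 41829, 45005 and 43771 CPM in mated males. In virgin males it stood at 49715, 44275 and 46783 CPM, so that the groups overlapped. Its log2 fold change was -0.092 (SE 0.095, 95% interval -0.30 to 0.12, adjusted p = 0.81 by edgeR). The 10 most highly counted genes took 15.8% to 17.1% of all counts in mated and 16.1% to 16.9% in virgin libraries, and their log2 fold changes ran from -0.17 to 0.28 with none called.

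Some large differences in abundant genes rested on single libraries. At 100 CPM or more, 13 genes differed by at least 2-fold, 3 higher and 10 lower in mated males, and none passed the test. The groups did not overlap in 1 of the 3 higher genes (5.93% of all genes tested had mated higher without overlap), which also rose in male abdomens and had an adjusted p of 0.0602 by edgeR, and in 6 of the 10 lower genes (10.1% of all genes had mated lower without overlap). In 8 of the 10 lower genes the highest library, always a virgin one, exceeded the next by more than 2 times. That library was virgin replicate 1 in 4 of the 10, replicate 2 in 5 and replicate 3 in 1, and none of the 10 is a male-limited abdominal gene. One gene chosen after its values were seen had 116.1, 173.9 and 96.4 CPM in mated males, against 3073, 104.3 and 1702 CPM in virgin males. Of the 3 higher genes, 1 had 832.1 CPM in mated replicate 2 and 11.4 to 17.1 CPM in every other male library.

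Genes detected in a single mating state were few and mostly low. The 109 genes tested with no count in any virgin library had a median level of 1.37 CPM in mated males, with a highest level of 22.5 CPM. The 118 with no count in any mated library had a median level of 1.28 CPM in virgin males, with a highest level of 7.15 CPM. None of either kind was called (lowest adjusted p = 0.0632 by edgeR). With about 8 counts for 1 CPM, absence cannot be told from a low level for genes near these medians.

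The risen genes of male heads and thoraces also rose in male abdomens, which are separate libraries. The labels do not say whether abdomens and heads and thoraces came from the same beetles. Of 14563 genes tested in male abdomens, 404 were called (2.77%), of which 215 rose (1.48%) and 189 fell (1.3%). Among the 9 risen genes of heads and thoraces, 8 also rose in abdomens, which is 88.9% of the 9 and 3.72% of the 215. Gene 9 had an abdominal log2 fold change of 0.23 (adjusted p = 0.21 by edgeR). The median log2 fold change of the 9 genes was 0.68 in heads and thoraces and 1.19 in abdomens, and it was larger in abdomens for 6 of the 9.

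The 2 genes with the largest increase in heads and thoraces also rose in abdomens. TR57290|c1_g4 averaged 36.6 ± 4.84 CPM in abdomens of mated and 14.7 ± 0.815 CPM in those of virgin males (SD, n = 3 each; log2 fold change 1.28, adjusted p = 0.0025 by edgeR). TR29718|c2_g8 averaged 55.4 ± 13.0 CPM in abdomens of mated and 19.3 ± 6.29 CPM in those of virgin males (SD, n = 3 each; log2 fold change 1.47, adjusted p = 0.0164 by edgeR). The difference between body parts (heads and thoraces minus abdomens) was 0.011 on the log2 scale for the first gene (95% interval -0.47 to 0.49) and -0.59 for the other (95% interval -1.23 to 0.051), and neither passed the test. The fallen gene TR54179|c0_g2 had no such counterpart, with 3.90 ± 2.07 CPM in abdomens of mated and 3.68 ± 1.53 CPM in those of virgin males (SD, n = 3 each; log2 fold change 0.034, adjusted p = 0.99 by edgeR).

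**Figure D4:**
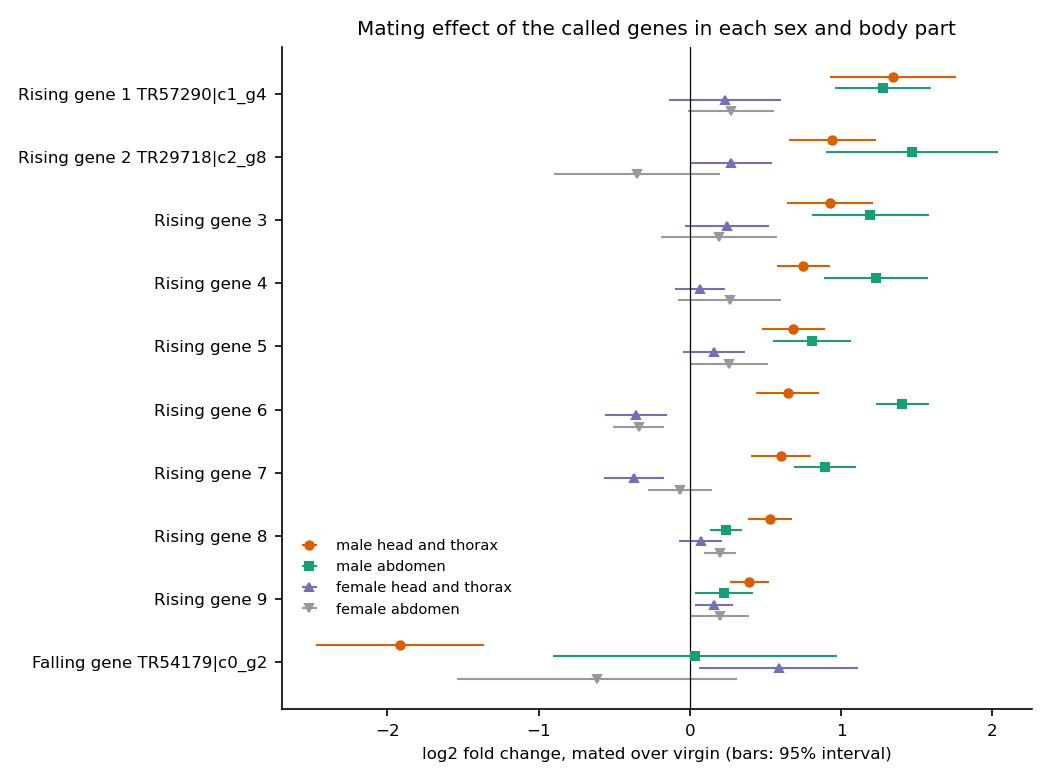
Log2 fold change of mated over virgin beetles for the 10 called genes in male heads and thoraces, male abdomens, female heads and thoraces and female abdomens (points, with 95% intervals from edgeR). The 9 risen genes are above 0 in both body parts of males, whereas female values lie between -0.37 and 0.27, and the fallen gene is below 0 in male heads and thoraces with an interval that excludes 0 there.

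The agreement between body parts of males went beyond the called genes. Of the 215 genes that rose in male abdomens, 213 were tested in male heads and thoraces. There, 190 of them (89.2%) were higher in mated than in virgin males, against 46% of all genes tested, and their median log2 fold change was 0.25, against -0.019 over all genes. An unadjusted p under 0.05 was reached by 102 of the 213 (47.9%) on the higher side and by 0 on the lower side, where all genes gave 4.18% and 5.46%. The male groups did not overlap, with mated higher, in 101 of the 213 genes (47.4%), against 5.93% of all genes, and with mated lower in 1 (0.469%), against 10.1% of all genes.

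In the abdomen the median log2 fold change of the 213 genes was 0.59, but the abdominal values had chosen the list, so the 2 medians cannot be compared for size. The test of the difference between body parts called 1 of the 213 genes. Among the 37 of them with at least 2-fold increases in abdomens, 5 (13.5%) rose in heads and thoraces. In mated males 28 (75.7%) were higher, and the median there was 0.59. Of all genes tested, 0.069% rose and 46% were higher. The 176 with smaller increases in abdomens gave 3 risen genes, 162 higher and a median of 0.24. Most of these genes were not restricted to the abdomen. The median level of the 213 genes was 45.3 CPM in male heads and thoraces and 50.1 CPM in male abdomens, and 2 of them are male-limited. Without virgin male replicate 1, 188 of the 213 genes were higher in mated male heads and thoraces and the median was 0.26.

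Genes that fell in male abdomens had mostly lower values in mated than in virgin male heads and thoraces as well. Of 189 such genes, 187 were tested in male heads and thoraces and none was called, against 0.0766% of all genes called. Of these, 143 (76.5%) were lower in mated males, against 53.7% of all genes, and the median log2 fold change was -0.10, beside -0.30 in the abdomens that had chosen them. The lower side had 32 genes (17.1%) at an unadjusted p under 0.05, against 5.46% of all genes, and the higher side had 1 (0.535%). In 48 of them (25.7%) the groups did not overlap with mated lower, against 10.1% of all genes. Without virgin male replicate 1 the median was -0.10.

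**Figure D5:**
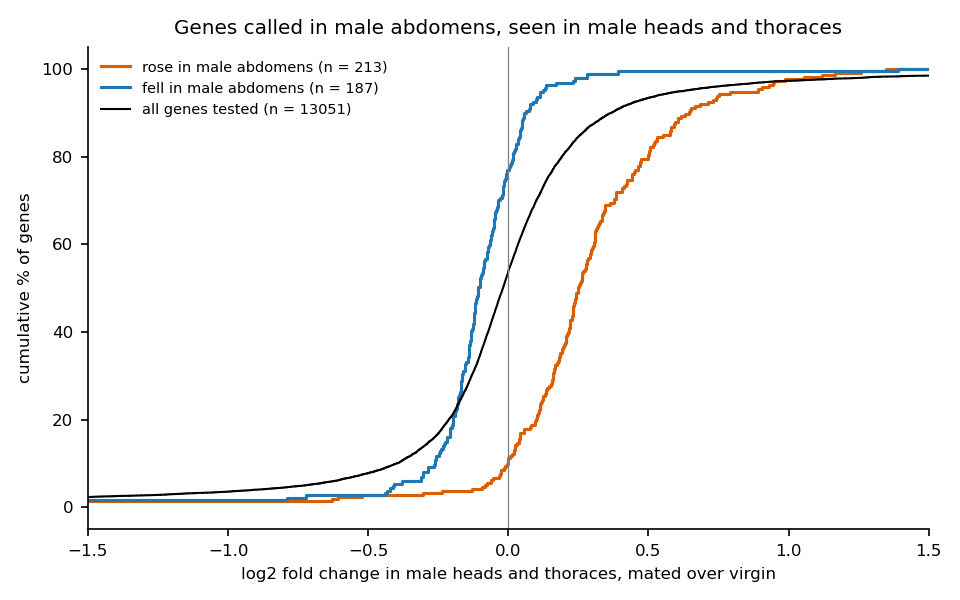
Cumulative percentage of genes (y axis) against their log2 fold change in male heads and thoraces, mated over virgin (x axis, drawn from -1.5 to 1.5), for 213 genes that rose in male abdomens, 187 that fell there and all 13051 genes tested. The curve of the risen genes lies to the right of the curve of all genes through most of its range (median 0.25 against -0.019), and that of the fallen genes lies to the left of it around its middle (median -0.10).

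Across genes, the mating effects in male heads and thoraces and in male abdomens were weakly related as a whole. Spearman's rho was 0.27 and Pearson's r 0.082 over 12336 genes tested in both, and 0.39 and 0.17 over 7233 genes at 10 CPM or more. These are descriptions across genes, which are not independent replicates. The corresponding rho with female heads and thoraces was 0.067 over 13051 genes, which shared a single fit and its scaling with the male values.

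The 17 genes with an adjusted p between 0.05 and 0.1 in male heads and thoraces resembled the called ones in direction and in the abdomen. Of the 15 higher genes, with log2 fold changes of 0.33 to 1.35, 12 rose in male abdomens, where 1.48% of all genes did, and 2 were called in female heads and thoraces, where 0.935% of all genes were. The 2 lower genes, with log2 fold changes of -5.46 and -0.81, were called in neither. The lower of these 2 had no count in any mated library, so that its log2 fold change is no measure of size.

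In female heads and thoraces the risen genes of males did not pass the test. Of 13051 genes tested there, 81 rose (0.621%) and 41 fell (0.314%) in mated females, and none of the 10 genes called in males was among them (lowest adjusted p = 0.104 by edgeR). The 9 risen genes had a median log2 fold change of 0.16 in females, and 7 of the 9 were positive. TR57290|c1_g4 averaged 40.6 ± 3.9 CPM in mated and 34.4 ± 3.8 CPM in virgin females, and TR29718|c2_g8 averaged 47.9 ± 7.64 CPM in mated and 39.5 ± 1.43 CPM in virgin females (SD, n = 3 each). Among head and thorax libraries, TR57290|c1_g4 was thus higher in every female one than in any male one. The mean of TR29718|c2_g8 in virgin female heads and thoraces lay within the spread of mated male ones. In female abdomens, of 14563 genes tested, gene 8 was among the 1191 that rose (8.18%) and gene 6 among the 915 that fell (6.28%).

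Lower levels in males than in females held for most of the risen genes. The mean of mated males was below that of mated females for 7 of the 9 genes, and that of virgin males was below that of virgin females for 9 of the 9. These comparisons share the male libraries that chose the genes, so they describe the levels and test nothing. The fallen gene TR54179|c0_g2 stood at 2.61 ± 0.314 CPM in mated and 10 ± 1.39 CPM in virgin males, and at 7.82 ± 0.854 CPM in mated and 5.19 ± 1.86 CPM in virgin females (SD, n = 3 each). Its order between the sexes was thus opposite in mated and in virgin beetles.

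The 213 genes chosen in male abdomens allow the sex difference to be read mostly without that choice, although 8 of them are risen genes of heads and thoraces. In mated heads and thoraces their median log2 difference of males minus females was -0.095, with 58 (27.2%) called lower and 44 (20.7%) called higher in males, against 19.1% and 16.4% of all genes. In virgin heads and thoraces the median was -0.25, with 89 (41.8%) called lower and 26 (12.2%) called higher, against 19.7% and 18.1% of all genes. Over all genes the medians were 0.0019 in mated and 0.018 in virgin beetles. Without those 8, the remaining 205 genes had medians of -0.088 in mated and -0.24 in virgin beetles. The median level in male heads and thoraces was 45.3 CPM for the 213 genes and 12.9 CPM for all genes, and the shares called were not matched for level. Lower levels in males were not particular to the risen list. Of the 187 genes that fell in male abdomens, 93 (49.7%) were called lower in males in mated and 80 (42.8%) in virgin heads and thoraces, with medians of -0.31 and -0.17.

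The lists chosen in female heads and thoraces held no gene called in males. With 0.0766% of all genes called in males, lists of 81 and 41 genes are expected to hold none. The 81 genes that rose in female heads and thoraces had a median log2 fold change of 0.021 in males, and 43 were positive. An unadjusted p under 0.05 was reached by 13 of them (16%) on the higher side, against 4.18% of all genes, and by 3 (3.7%) on the lower side, against 5.46%. The 41 that fell there had a median of 0.052 (-0.017 without virgin male replicate 1), with 22 positive, 3 (7.32%) on the higher and 4 (9.76%) on the lower side at that p.

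The difference between the sexes was tested as a sex-by-mating interaction. It was called for 14 of 13051 genes (0.107%), with 6 higher (0.046%) and 8 lower (0.0613%) in males minus females. Of the 14, 3 were called in male and 10 in female heads and thoraces, and 13 had opposite signs in the sexes. In most of them, therefore, the called change was that of females. The 3 that were called in males are TR54179|c0_g2 and rising genes 6 and 7.

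For TR54179|c0_g2 the interaction was -2.51 on the log2 scale (SE 0.35, adjusted p = 0.0256 by edgeR), with a log2 fold change of 0.59 in females (adjusted p = 0.37). Gene 6 averaged 239 ± 12.9 CPM in mated and 154.1 ± 9.05 CPM in virgin males, and 262.5 ± 27.4 CPM in mated and 334.4 ± 30.1 CPM in virgin females (SD, n = 3 each). Its interaction was 1.00 (SE 0.13, adjusted p = 0.0207 by edgeR). Gene 7 averaged 53.3 ± 1.66 CPM in mated and 35.4 ± 3.35 CPM in virgin males, and 32.5 ± 2.16 CPM in mated and 41.9 ± 3.48 CPM in virgin females (SD, n = 3 each). Its interaction was 0.98 (SE 0.13, adjusted p = 0.0207 by edgeR). Both genes rose in males, and in females both had the lower mean after mating, where the changes missed the threshold (adjusted p = 0.13 and 0.104). For the remaining 7 risen genes the interaction did not pass (adjusted p = 0.0586 to 0.393), so that a difference between the sexes was not shown. All 3 interaction calls ended when any 1 of the 6 male libraries was left out.

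The difference between body parts of males was called for 3 of 15558 genes (0.0193%), 1 higher (0.00643%) and 2 lower (0.0129%) in heads and thoraces minus abdomens. Among the risen genes this was gene 6, which averaged 239 ± 12.9 CPM in mated and 154.1 ± 9.05 CPM in virgin heads and thoraces, and 214.4 ± 20.4 CPM in mated and 78.6 ± 5.84 CPM in virgin abdomens (SD, n = 3 each). Its abdominal log2 fold change of 1.41 exceeded that of 0.65 in heads and thoraces by an interaction of -0.82 (SE 0.13, adjusted p = 0.0194 by edgeR). Mated levels were close in the 2 body parts, and virgin levels were not. Another gene averaged 47.5 ± 7.48 CPM in mated and 265.7 ± 154.5 CPM in virgin heads and thoraces, and 534.6 ± 60.6 CPM in mated and 344 ± 118.5 CPM in virgin abdomens (SD, n = 3 each). Its interaction was -3.12 (SE 0.48, adjusted p = 0.0194 by edgeR), although neither body part was called alone. The last averaged 152.5 ± 8.08 CPM in mated and 126.8 ± 14.8 CPM in virgin heads and thoraces, and 593 ± 28.6 CPM in mated and 809.4 ± 4.68 CPM in virgin abdomens (SD, n = 3 each; interaction 0.72). These 3 calls depended on single libraries, and their number ran from 0 to 10 when 1 of the 24 libraries was left out.

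Lists of genes set apart by body part or sex held few called genes in male heads and thoraces. With 0.0766% of all genes called, lists of these sizes are expected to hold few or none, so these counts do not describe the lists. Of the 47 head and thorax genes, 46 were tested and none was called. Their median log2 fold change was -0.097, and 31 were negative (67.4%, against 53.7% of all genes). Their sums gave a ratio of mated to virgin of 0.93, without overlap between the groups (exact two-sided permutation p = 0.1, the smallest that 3 against 3 allow). The 573 genes with at least 2-fold higher expression in male than in female heads and thoraces (averaged over mating states) held no called gene. Of all genes, 0.0766% were called. The median of the 573 was -0.043 (0.0028 with library size scaling), and the compared male libraries took part in choosing them. With genes of the male-limited and shared abdominal lists removed, 470 of them remained, with a median of -0.013. The 1001 genes at least 2-fold higher in females held 3 of the risen genes (0.3%, against 0.069% of all genes) and had a median of -0.036. The female-limited list gave a ratio of 1.09 (exact two-sided permutation p = 0.2). Of the 976 male-limited abdominal genes, 249 were tested and none was called. Their median was -0.40, and 49 (19.7%) were lower at an unadjusted p under 0.05 by edgeR, against 5.46% of all genes. Without virgin male replicate 1, 256 were tested, the median was 0.024 and 4 were lower at that p.

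Transcripts gave no call of their own. Of 24428 transcripts tested, 0 were called by edgeR (0%; 1409 had an unadjusted p under 0.05), while DESeq2 called 203 and limma-voom 0. The lowest adjusted p was 0.152, and 6 transcripts of the called genes reached it. One transcript of rising gene 5 averaged 210.6 ± 14.5 CPM in mated and 105.7 ± 9.64 CPM in virgin males (SD, n = 3 each; log2 fold change 0.99). Its other 2 transcripts averaged 59.6 ± 6.03 and 57.9 ± 4.37 CPM in mated males and 47.1 ± 13.2 and 50 ± 8.03 CPM in virgin males (SD, n = 3 each), so that most of the difference in that gene lay in a single transcript by value. For 3 of the 10 called genes a single transcript is listed.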

How the data were processed

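Abdomens were removed on ice from flash-frozen beetles, RNA was extracted on RNeasy columns, a stranded mRNA kit was used for the libraries, and each was sequenced on 2 lanes, per the labels' protocols. The authors deposited unnormalised expected counts (estimated counts) of genes and of transcripts, and 14.1% of gene values are not whole. The submitters' processing notes name Bowtie 0.12.6, Trimmomatic 0.3, cutadapt 1.2.1 and FastQC 0.11.2. No source used here names the counting program, the reference or the strand setting, so reads shared by near-identical, overlapping or antisense genes may be split in an unknown way. The sum of the transcripts was off the gene value by over 0.5 for 4524 genes, 1 of them called.

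Counts were rounded and tested with edgeR 4.0.16 in R 4.3.3 (TMM, filterByExpr by group, robust quasi-likelihood fit, 1 mean per group, Benjamini-Hochberg threshold 0.05). The 12 head and thorax libraries were fitted together, as were the 12 abdomens; the body part interaction used all 24. A standard error is the size of the log2 fold change over the square root of F. CPM used TMM factors over all 24 libraries. Groups came from the source names. Printed IDs are the 2 rising and 2 falling genes whose log2 fold change is largest, if called, without overlap and with 3 or more counts in each of the 6 libraries; as 1 fell, the uncalled gene of lowest p that met these conditions was added, and the most highly counted gene. Genes were compared and lists made with earlier results of these data known. Lists used 5 CPM and a 16-fold limit. Summed lists were compared by exact permutation. Alternatives were DESeq2 1.42.0 (test and size factors), library size scaling, other low-count filters, limma-voom (limma 3.58.1), no robust estimation, a replicate block, other sets of libraries or genes, summed transcripts, other list limits, and each library left out. The fits were tested on simulated counts.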

Additional observations from a re-analysis of the deposited data

Results flagged for a closer look

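The mating effect differed between the sexes in 14 genes of the head and thorax by the test of the interaction (males minus females). Of the genes called in males, rising gene 6 had an interaction of 1.00, rising gene 7 one of 0.98 and TR54179|c0_g2 one of -2.51 on the log2 scale. The mating effect of males differed between heads and thoraces and abdomens in 3 genes by the same kind of test, and rising gene 6 was again among them, with -0.82 on the log2 scale.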

How the results depend on the processing

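The 10 calls in male heads and thoraces became 22 (21 higher, 1 lower) with library size scaling, 189 (114 higher, 75 lower) with DESeq2, 4 with limma-voom, 0 in a fit of the 6 male libraries alone (lowest adjusted p = 0.0547) and 44 (29 higher, 15 lower, 9 of them shared) in a fit of all 24. They numbered 0 to 14 with 1 of 12 libraries left out. Without virgin male replicate 1 there were 4, 1 higher and 3 lower. With the abdominal lists removed all 10 remained. Same-numbered mated and virgin libraries had r = 0.23, -0.081 and 0.19, and differently numbered ones -0.33 to 0.21. So few values cannot show whether replicate numbers pair the samples. With the replicate block 2 genes were called, 1 of them shared. The 14 sex interactions became 58 with library size scaling (51 higher, 7 lower; median of all genes 0.11), 268 with DESeq2, 1 with the replicate block, 104 in the fit of all 24 and 0 to 15 with a library left out. The 3 body part interactions became 62 with DESeq2 and 0 to 10 with a library left out. Transcript calls became 203 with DESeq2 and 0 to 10 with a library left out. For single genes, the call ended in 285 alternative values, 395 were unchanged in call and direction, 1 gained a call and 0 changed direction. These values include TR75389|c0_g1 and TR36313|c1_g2, which were not called in the main fit and count as unchanged where they stayed uncalled. The log2 ratio of summed male-limited genes, -0.41, ranged from -0.64 to 0.031 with a library left out, the last without virgin male replicate 1. That of shared abdominal genes, 0.28, was -0.049 with the list limit at 1/64, -0.097 as a median over genes, -0.0013 without virgin male replicate 2, and ran from -0.020 to 0.56 with a library left out. Among list medians in males, that of the genes that fell in female heads and thoraces, 0.052, was -0.017 without virgin male replicate 1, and that of male-biased genes, -0.043, was 0.0028 with library size scaling. The median of the male-limited genes, -0.40, was 0.024 without virgin male replicate 1. The cause of these reversals was not tested. The median of the genes that rose in male abdomens ranged from 0.23 to 0.30 over 24 alternatives. Depth limits genes under 10 CPM most.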
